A study of Rattus norvegicus with 12 samples.

Results

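This report covers 10 genes of glucocorticoid signalling in the rat colon. They are the receptors Nr3c1 and Nr3c2, the interconverting enzymes Hsd11b1 and Hsd11b2, the steroid-synthesis enzymes Cyp11a1, Cyp11b1 and Cyp17a1, and the hormone-responsive genes Fkbp5, Tsc22d3 and Sgk1. They were taken by name, as every non-control probe whose gene name on the array was one of these symbols, which gave 13 probes of 30367 and all 10 names of 26514. RNA was extracted from the distal colon of 12 male Wistar rats, labelled with Cy3 and hybridised to 1-colour whole-genome arrays, 1 rat per array and 4 rats per group. Group C (rats C1 to C4) was handled normally after birth and given placebo. Group M (M5 to M8) underwent neonatal maternal separation (NMS), 180 min daily from day 2 to day 14, and was given placebo. Group D (D9 to D12) underwent the same NMS and received the probiotic mixture VSL#3 by daily gavage from day 3 to day 60. Every rat, controls included, was tested by colorectal distension (CRD) and killed at day 60, and no group without CRD or with VSL#3 but no NMS was on these arrays. Per the study's methods, rats were fasted before CRD and sedated with ether to place the balloon. A lasting change after NMS and a different response to the test day therefore cannot be told apart. Following the study's methods the tests used 11 arrays, leaving out D12, whose value is given for each of the 9 members measured above background. Levels are given as log2 signal relative to the 75th percentile of the same array, so that 0 is the brightness of a probe at that percentile and a step of 1 is a 2-fold change. Folds between groups are ratios of means taken on this log scale.

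Glucocorticoids are the end hormones of the stress axis. They cross the cell membrane and bind the glucocorticoid receptor (Nr3c1) or the mineralocorticoid receptor (Nr3c2), which sit in the cytoplasm in a complex with the Hsp90 chaperones and move to the nucleus to turn target genes on or off. Before the hormone reaches the receptor, Hsd11b1 can regenerate it from its inactive 11-keto form and Hsd11b2 can inactivate it, the latter strongly in the colon surface epithelium, where it keeps the mineralocorticoid receptor free for aldosterone. The intestine also makes some glucocorticoid locally from cholesterol, and early-life separation is widely used in rodents to study lasting changes of the stress axis.

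All 12 colon epithelium markers, all 7 smooth muscle markers and all 7 leukocyte markers were well above background on all 12 arrays. So were 20315 of all 30367 probes, and detection alone therefore says little about the labelled tissue. The summed level of the 7 leukocyte markers (among them Ptprc, Cd3e, Cd68 and Lyz2, on a linear scale where 1 is the 75th percentile of the array) set 5 rats apart. It was 43.6 in C2, 57.4 in M5, 58.1 in M7, 46.3 in M8 and 54.9 in D12, and between 9.41 and 14.3 in the 7 others, so that 1 of 4 control rats, 3 of 4 Group M rats and 1 of 4 Group D rats were leukocyte-rich. Without D12, every Group D rat was leukocyte-poor. On the 11 arrays leukocyte level thus went largely with group, and fits with it as a covariate, which lean on M6 and C2, cannot separate the 2 well. In whole tissue fewer cells of a type and less RNA per cell cannot be told apart. Groups C and M lay in different rows of 1 slide and all of Group D on a second slide, scanned separately, so slide and group cannot be told apart in any comparison with Group D, nor array row and group between Groups M and C. The 3 comparisons share groups: a low value in Group M lowers it against both of the others.

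The measured stretch of each transcript is set by its probe, a 60-base oligonucleotide. The first 30 bases are shown for the probes on which the results turn most, with positions on the rn4 build as the array files give them. All of these probes lie on the minus strand except those of Hsd11b2 and Cyp11a1, which lie on the plus strand.
Fkbp5, chr20:6637600-6637659: gagtggtgggtaagcagatgacattgaaat
Tsc22d3, chrX:128336564-128336623: atggagtcctgtggtagacaagaagagtaa
Cyp17a1, chr1:251965532-251965591: gatccatacctcaacacccacagtacaatc
Cyp11a1, chr8:61805170-61805229: aattgaagttcaaagtatccgtgatgtggg
Hsd11b2, chr19:35341413-35341472: tgtctcagtgctgcagtccagagtaaatcc
Each of these genes had 1 probe. Nr3c1, Nr3c2 and Cyp11b1 had 2 each, and for them the probe with the higher mean signal stood for the gene in the counts.

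Among the 10 genes, Cyp17a1 passed the test across all probes in 1 comparison, and Fkbp5 was the gene whose groups were most cleanly ordered. Cyp17a1, the enzyme that makes the 17-hydroxylated steroids, rose 2.69-fold in Group D over Group M (adjusted p = 0.0489, by limma, the p-values of all 30367 probes being adjusted together). Fkbp5, a co-chaperone of the receptor that is induced by it and dampens it, was lowest in every control rat, intermediate in every Group M rat and highest in every Group D rat, D12 included, with a mean in Group D 3.83 times that of Group C (adjusted p = 0.123). Both receptors and Hsd11b1 differed by 1.26-fold or less in every comparison. The plot of single rats shows these levels gene by gene.

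**Figure D1:**
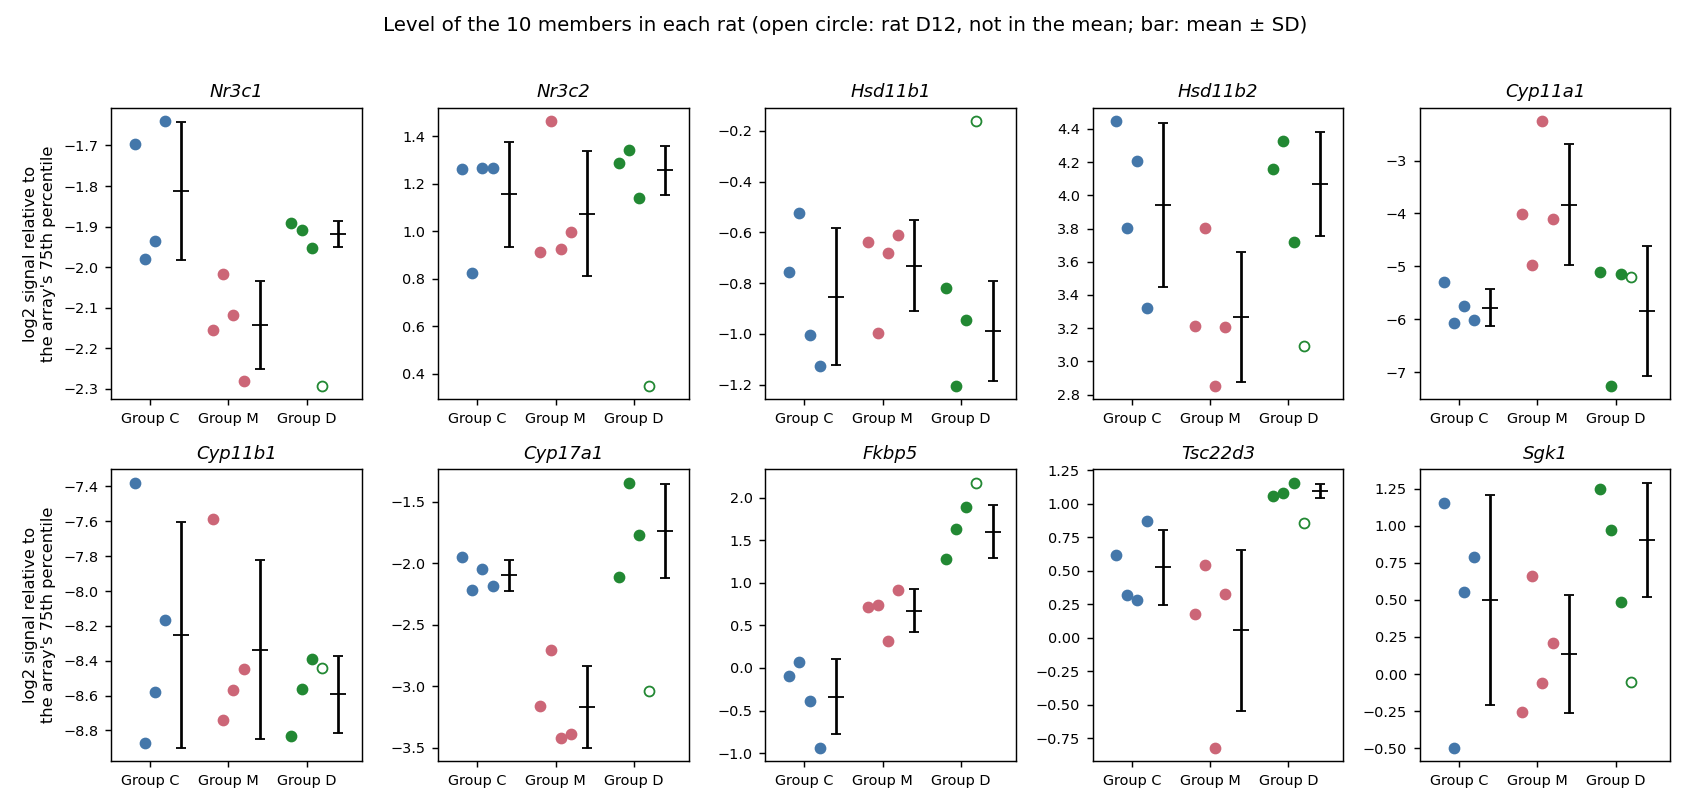
Level of each of the 10 genes in each rat, by the probe with the higher mean signal, as log2 signal relative to the 75th percentile of the array (each panel has its own axis). Filled circles are the rats in the tests, the open circle is D12, and bars give the mean ± SD of the filled circles. Fkbp5 steps up from Group C to M to D without overlap, and Cyp17a1 is lowest in Group M, with D12 among the Group M rats.

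Groups M and C compare separated with unseparated rats, all after CRD. Between them, 0 of the 10 genes passed at an adjusted p of 0.05, where 0.204% of all probes did. By an unadjusted limma p of 0.05, 5 of the 10 passed, where 22.7% of all probes did. These were Fkbp5 and Cyp11a1, higher in Group M, and Cyp17a1, Hsd11b2 and Nr3c1, lower. The criterion of the study's methods (analysis of variance and Tukey test at 0.05 with a 2-fold change) took 3, Fkbp5, Cyp11a1 and Cyp17a1, where 2.31% of all probes met it. The groups did not overlap for 4 of the 10, against 9.22% of all probes. One rat, M6, weighed on this comparison. Without it, 4 of the 10 passed at an adjusted p of 0.05 by limma. These were Nr3c1 (-0.37, adjusted p = 0.0485), Cyp11a1 (2.33, adjusted p = 0.0321), Cyp17a1 (-1.23, adjusted p = 0.00859) and Fkbp5 (0.98, adjusted p = 0.0334). Every rat left in Group M was then leukocyte-rich. Calls also rose without M6 among the genes of the lists given below. The share of all probes is not given for this fit, so the count cannot be read as particular to these genes.

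Groups D and M compare VSL#3 with placebo in separated rats, all after CRD. Between them, 1 of the 10 passed at an adjusted p of 0.05, Cyp17a1, where 0.171% of all probes did. By an unadjusted p, 5 of the 10 passed, against 21.6% of all probes. Cyp17a1, Fkbp5, Tsc22d3 and Hsd11b2 were higher in Group D and Cyp11a1 lower. The criterion of the methods took Cyp17a1 and Tsc22d3, where 2.66% of all probes met it, and 5 of the 10 did not overlap, against 15.8% of all probes. Without M6, 5 passed at an adjusted p of 0.05 by limma, with log2 differences of 1.58 for Cyp17a1 (adjusted p = 0.00468), 1.2 for Tsc22d3 (0.0256), 0.98 for Hsd11b2 (0.0477), 0.95 for Fkbp5 (0.0476) and -2.39 for Cyp11a1 (0.038). M6 was the leukocyte-poor rat of Group M, so without it leukocyte level went still more with group. Calls among the genes of the lists given below rose here too. The share of all probes is not given for this fit, so this count cannot be read as particular to these genes either. The call of Cyp17a1 was lost with D12 in the fit (1.1, adjusted p = 0.222) and without any 1 of the 9 rats other than C2 and M6.

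Between Groups D and C, 0 of the 10 passed at an adjusted p of 0.05 by limma, where 2 probes in all did (0.00659%). Fkbp5 was the 1 gene of the 10 with an unadjusted p under 0.05, against 5.97% of all probes, and the 1 that met the criterion of the methods, against 0.369% of all probes. It ranked 3 of 30367 by p. Fkbp5 and Tsc22d3 were the 2 genes whose groups did not overlap on the 11 arrays, against 7.56% of all probes.

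**Figure D2:**
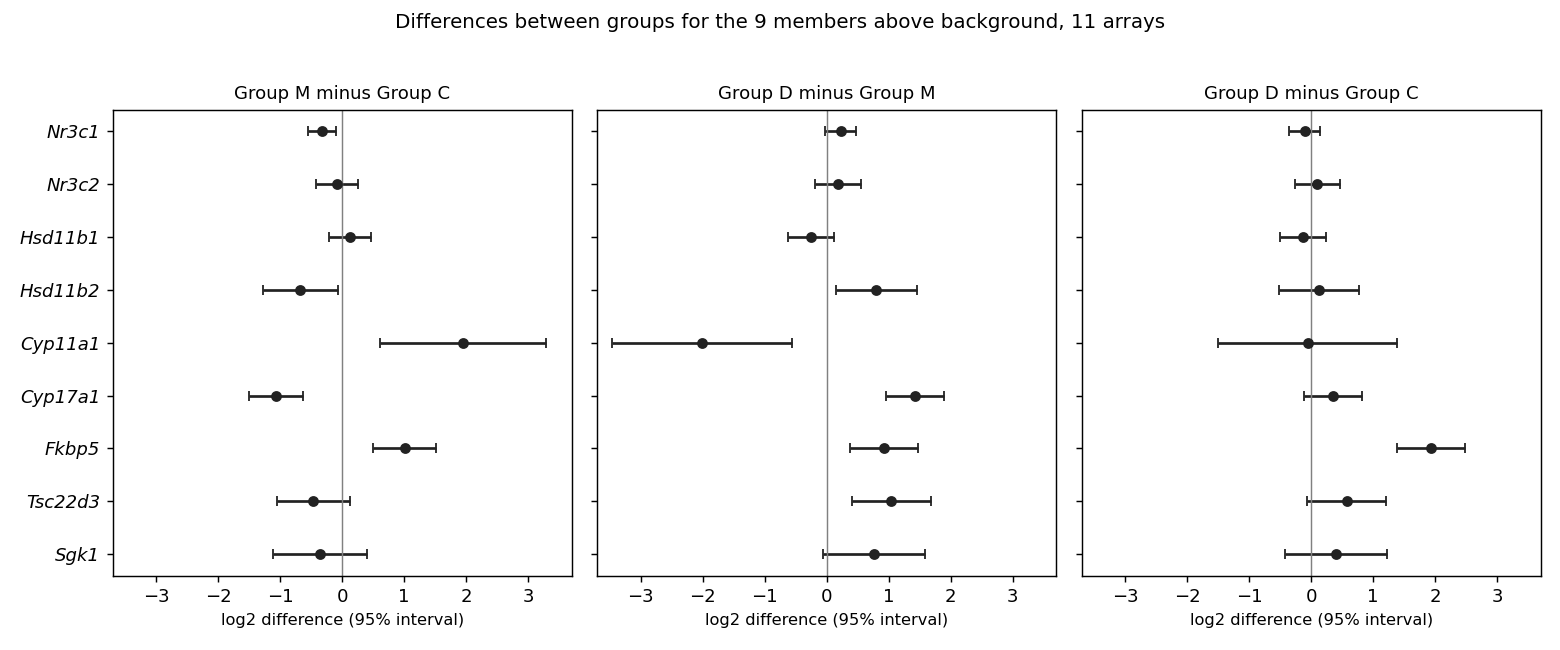
Log2 difference between group means for the 9 genes measured above background, on 11 arrays, with 95% intervals from limma (Cyp11b1 is left out). The Cyp17a1 and Cyp11a1 intervals lie on opposite sides of 0 in Group M minus Group C and again, with signs turned, in Group D minus Group M, and the Fkbp5 interval lies above 0 in all 3 panels.

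The first enzyme of all steroid synthesis is Cyp11a1, which cuts the cholesterol side chain. Its probe was dim, and read -5.31, -6.08, -5.74 and -6.01 in C1 to C4, against -4.01, -4.97, -2.25 and -4.11 in M5 to M8. In Group D it read -5.11, -7.26 and -5.15 in D9 to D11 and -5.20 in D12, with D10 not well above background. All 4 Group M rats lay above all other rats. The mean of Group M was 3.86 times that of Group C (log2 difference 1.95 ± 0.60 SE, adjusted p by limma = 0.122), and the difference of Group D from Group M was -2.01 ± 0.65 on the log2 scale (adjusted p = 0.135). These sizes moved with the background correction and with single rats. With normexp correction they were 1.0 and -0.90, and the second was -1.30 without D10. Within Group M the 3 leukocyte-rich rats M5, M7 and M8 held the highest values and M6 the lowest, but the leukocyte-rich C2 and D12 read -6.08 and -5.20. The part of leukocyte content in this difference was not tested beyond these values and the fit with leukocyte level as a covariate, in which it was 1.68 (adjusted p = 0.51).

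Cyp17a1, a hydroxylase and lyase on the path to the sex steroids, was measured well above background in all rats. It read -1.94, -2.22, -2.05 and -2.18 in Group C and -3.16, -2.70, -3.42 and -3.39 in Group M. In Group D it read -2.11, -1.34 and -1.77 in D9 to D11 and -3.04 in D12. Every Group M rat lay below every control rat and below D9 to D11, while D12 lay within the range of Group M. The mean of Group M was 2.10-fold below that of Group C (log2 difference -1.07 ± 0.19 SE, adjusted p = 0.0741), and the rise from Group M to Group D was 1.43 ± 0.21 (adjusted p = 0.0489). Over the fits that left out 1 of the 11 rats, the rise lay between 1.23 and 1.61, with adjusted p from 0.00468 to 0.153. The leukocyte-rich Group M rats and D12 held the 4 lowest values, while the leukocyte-rich C2 was the lowest control rat at -2.22 and M6, with a leukocyte level of 13.2, was still below all control rats. With leukocyte level as a covariate the difference of Group D from Group M was 1.16 (adjusted p = 0.435), in a fit where that level went largely with group.

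Cyp11b1, which completes the synthesis of corticosterone in the adrenal cortex, was at background. Its 2 probes lie 28777 bases apart on chromosome 7 and belong to a family of near-identical genes. One did not stand well above background in any rat, and the other, designed on an Ensembl transcript, did so on 2 arrays, those of C1 and M5. No fold is given for either. The related Cyp11b3 was dim but well above background on all 12 arrays, with means of -5.61 in Group C, -5.51 in Group M and -5.24 in D9 to D11. Of 9 markers of adrenal cortex and gonad, 6 were at background on all arrays, among them Mc2r and Nr5a1, and the 3 measured on every array were Star, Cyp21a1 and Insl3.

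Hsd11b1, which regenerates active hormone, differed little. Its group means were -0.85 ± 0.27 (SD, n = 4) in Group C, -0.73 ± 0.18 (n = 4) in Group M and -0.99 ± 0.20 (n = 3) in Group D. The largest of the 3 differences was -0.26 ± 0.17 SE, in Group D against Group M (adjusted p = 0.399, 95% interval -0.63 to 0.11), and D12, at -0.16, was the highest of all rats.

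Hsd11b2, the inactivating enzyme, was one of the brighter probes and read 4.45, 3.80, 4.20 and 3.32 in Group C. In Group M it read 3.21, 3.80, 2.85 and 3.21. In Group D it read 4.16, 4.33 and 3.72 in D9 to D11 and 3.09 in D12. The groups overlapped in every comparison, through C4 and M6, and the 4 lowest values were those of M5, M7, M8 and D12, each a leukocyte-rich rat. Group M was 1.60-fold below Group C (log2 difference -0.68 ± 0.27 SE, adjusted p by limma = 0.178) and Group D 1.74-fold above Group M (0.80 ± 0.29, adjusted p = 0.16), and D against C was 0.12 (95% interval -0.53 to 0.77). With leukocyte level as a covariate the first difference was -0.40 and the second 0.39.

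The glucocorticoid receptor gene Nr3c1 was covered by 2 probes 3794 bases apart on chromosome 18, which gave different answers. The brighter read -1.70, -1.98, -1.93 and -1.64 in Group C and -2.15, -2.02, -2.12 and -2.28 in Group M. It read -1.89, -1.91 and -1.95 in D9 to D11 and -2.29 in D12. All Group M rats lay just below all control rats, by 1.26-fold in the mean (log2 difference -0.33 ± 0.10 SE, adjusted p by limma = 0.123). The second probe differed by 0.09 (95% interval -0.27 to 0.44), so a lower receptor message in Group M was seen by 1 of 2 probes, and the difference in Group D against Group C was -0.10 (95% interval -0.35 to 0.14) by the first.

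The mineralocorticoid receptor gene Nr3c2 also had 2 probes, and neither separated the groups. The brighter gave means of 1.16 ± 0.22 (SD, n = 4) in Group C, 1.07 ± 0.26 (n = 4) in Group M and 1.26 ± 0.10 (n = 3) in Group D, with no difference above 0.18 on the log2 scale. The 95% interval of Group M minus Group C was -0.42 to 0.26 by this probe and -0.27 to 0.47 by the other. The lowest rats were D12, at 0.35, and C2, at 0.83, and both were leukocyte-rich.

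Fkbp5 had the largest difference from Group C of the 3 hormone-responsive members. It read -0.10, 0.07, -0.38 and -0.94 in Group C, 0.71, 0.74, 0.32 and 0.91 in Group M, and 1.28, 1.63, 1.89 and 2.17 in D9 to D12. No 2 groups overlapped, with a gap of 0.25 between the highest control rat and the lowest Group M rat and of 0.36 between Groups M and D. This rising order without overlap over all 12 arrays was seen for 3 of all 30367 probes (0.00988%). The others were Slc38a1 and Smndc1, with smaller differences of 0.51 and 0.39 between Groups D and C. Only the rising order, the one seen in Fkbp5, was counted. The falling order was not counted but also occurred, as in the pancreas marker Cela1. The log2 differences were 1.01 ± 0.23 SE for Group M against C (adjusted p = 0.0932), 0.93 ± 0.25 for D against M (adjusted p = 0.101) and 1.94 ± 0.25 for D against C (adjusted p = 0.123 by limma). With all 12 arrays the last was 2.08 with an adjusted p of 0.0496, and leaving out any 1 rat kept it between 1.74 and 2.10, with adjusted p from 0.0613 to 0.353. The leukocyte-rich C2 and D12 were the highest rats of their groups, and the leukocyte-poor M6, at 0.74, lay within the 0.32 to 0.91 of the others of Group M, as the plot against leukocyte level shows. With leukocyte level as a covariate the difference of D from C was 1.99 (adjusted p = 0.143).

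**Figure D3:**
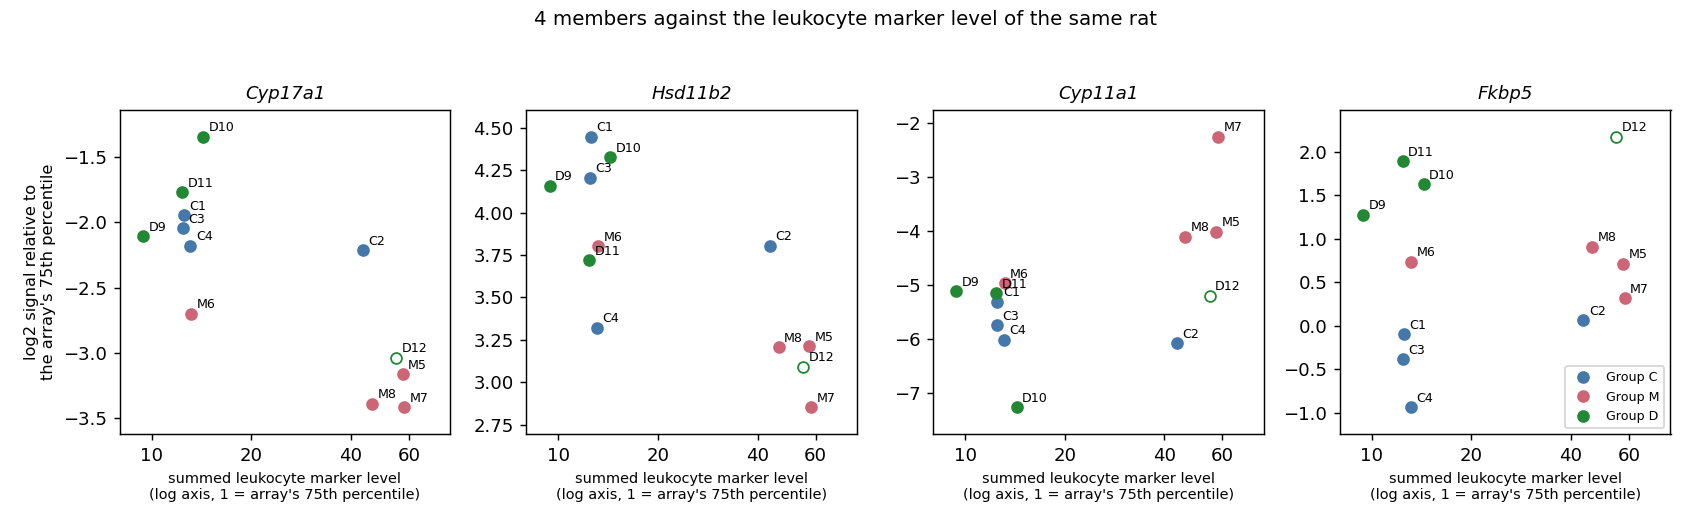
Cyp17a1, Hsd11b2, Cyp11a1 and Fkbp5 in each rat (vertical, log2 signal relative to the 75th percentile of the array) against the summed linear level of 7 leukocyte markers in the same rat (horizontal, log axis). Colours are the groups and the open circle is D12. M5, M7, M8 and D12 lie together at the right of the Cyp17a1 and Hsd11b2 panels, while in the Fkbp5 panel the groups form 3 layers. At high leukocyte level C2 alone stands for Group C and D12, outside the tests, for Group D. At low level M6 alone stands for Group M.

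Tsc22d3, which encodes the anti-inflammatory leucine zipper protein GILZ, read 0.62, 0.32, 0.28 and 0.87 in Group C and 0.18, 0.54, -0.82 and 0.32 in Group M. In Group D it read 1.05, 1.08, 1.16 and 0.86. All Group D rats lay above all Group M rats, and D9 to D11 above all control rats, with D12 just under C4. Group D was 2.06-fold above Group M (log2 difference 1.04 ± 0.29 SE, adjusted p by limma = 0.105) and 1.49-fold above Group C (0.57 ± 0.29, adjusted p = 0.861). With leukocyte level as a covariate the difference of D from M was 0.62 (adjusted p = 0.893). Group M minus Group C was -0.47 with a 95% interval of -1.06 to 0.12, where the interval for Fkbp5 was 0.50 to 1.51.

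Sgk1, a kinase induced by both receptors that raises sodium transport, varied as much within groups as between them. Its means were 0.50 ± 0.71 (SD, n = 4) in Group C, 0.14 ± 0.40 (n = 4) in Group M and 0.90 ± 0.39 (n = 3) in Group D, and rats ranged from -0.50 in C2 to 1.25 in D9, with D12 at -0.05. The largest difference, Group D against M, was 0.77 (95% interval -0.06 to 1.59, adjusted p = 0.261). It was -0.12 in the fit with leukocyte level as a covariate.

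None of the 3 pairs of hormone-responsive genes passed a test of correlation over the rats after adjustment, which does not show that they varied independently. Pearson's r over 12 rats was 0.40 for Fkbp5 and Tsc22d3 (Spearman's rho 0.50), -0.04 for Fkbp5 and Sgk1 (rho -0.01) and 0.56 for Tsc22d3 and Sgk1 (rho 0.63). Two-sided permutation p-values adjusted over the 3 pairs were 0.303, 0.903 and 0.157 for r and 0.149, 0.974 and 0.0965 for rho. Without the 2 rats farthest from the median of the first gene r was 0.61, 0.27 and 0.64. Within the slide of Groups C and M (8 rats) it was -0.36, -0.42 and 0.55, with rho of -0.29, -0.38 and 0.76, so that Tsc22d3 and Sgk1 kept their sign and Fkbp5 and Tsc22d3 did not. The permutations moved rats freely between groups, so these values mix differences between groups with those between rats of a group. On deviations from the group means r was 0.06, -0.51 and 0.44 (unadjusted permutation p = 0.849, 0.0937 and 0.153).

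The promoter windows of 5 of the 10 genes were in the RefSeq table for the GRCr8 build (10 windows of 300 bases, from 250 before to 50 after a transcript start). The palindromic response element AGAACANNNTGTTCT and its half-site AGAACA, or TGTTCT on the other strand, were in none of these 10 windows, while 0.0149% of all 33469 windows held the first and 20.7% the second. This says only that these letters were not in these windows. The 250 bases before the Fkbp5 start (chr20:6543556-6543805, minus strand) are shown because Fkbp5 was the member with the cleanest order of groups. They are 76% G or C and hold 1 CCAAT box and 3 GC boxes (GGGCGG), in capitals. A CCAAT box, searched on both strands as CCAAT or ATTGG, was in 37.5% of all windows, and a GC box, as GGGCGG or CCGCCC, in 33.1%.
Fkbp5 promoter: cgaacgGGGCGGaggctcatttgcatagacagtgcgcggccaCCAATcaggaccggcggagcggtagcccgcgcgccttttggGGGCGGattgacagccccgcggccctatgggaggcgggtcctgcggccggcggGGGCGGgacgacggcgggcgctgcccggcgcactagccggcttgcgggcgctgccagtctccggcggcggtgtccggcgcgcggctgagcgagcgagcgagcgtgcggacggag

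A longer list of 25 genes known to respond to glucocorticoids in other tissues gave counts in both directions. None passed at an adjusted p of 0.05 by limma in any comparison, and by an unadjusted p 7 were higher and 1 lower in Group M than in Group C, 4 higher and 5 lower in Group D than in Group M, and 1 higher in Group D than in Group C, where 22.7%, 21.6% and 5.97% of all probes passed. The median log2 differences were 0.13, -0.11 and -0.02, beside -0.01, 0.01 and -0.01 over all probes. Tat was at background on all 12 arrays, and Per1 and Dusp1, acute responders in many cells, differed by no more than 0.19 on the log2 scale in any comparison.

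The 1 gene of that list to meet the criterion of the methods between Groups D and C was Zbtb16, a transcription factor strongly induced by the receptor in many tissues. It read -7.06, -7.40, -6.97 and -6.42 in Group C, near background, where 2 of 4 arrays were well above it. In Group M it read -6.54, -4.54, -8.27 and -5.79, and in D9 to D12 -5.29, -4.62, -3.23 and -4.48. All Group D rats lay above all control rats and D11 and D12 above all Group M rats, whose range took in all control rats. The log2 difference of Group D from Group C was 2.58 ± 0.76 SE (adjusted p by limma = 0.656). Its size is uncertain, since 2 of the 4 control arrays did not stand well above background.

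Other genes of the list differed mostly between Group M and the rest. Il1r2, the decoy receptor for interleukin-1, was higher in Group M than in Group C by 1.92 ± 0.57 SE (log2, adjusted p = 0.115). Angptl4, a lipase inhibitor, was higher by 1.68 ± 0.48 (adjusted p = 0.113) and Anxa1, the anti-inflammatory annexin, by 1.34 ± 0.43 (adjusted p = 0.129), while Pck1, of gluconeogenesis, was lower by 1.76 ± 0.63 (adjusted p = 0.15). Against Group M, Group D had lower Angptl4 (-2.07 ± 0.52, adjusted p = 0.0943), Anxa1 (-1.53 ± 0.47, adjusted p = 0.124) and Bcl6 (-1.26 ± 0.35, adjusted p = 0.104) and higher Slc9a3, an apical sodium exchanger (3.02 ± 1.19, adjusted p = 0.184). D12 stood outside the other Group D rats for all 4 and beyond every Group M rat for Bcl6, at 1.75, and Slc9a3, at -6.94. With D12 in the fit the differences were -1.69 for Angptl4, -1.17 for Anxa1, -0.84 for Bcl6 and 1.72 for Slc9a3 (adjusted p = 0.271, 0.382, 0.469 and 0.648). Slc9a3 was not well above background on 1 array. Anxa1, Il1r2, Pck1 and Slc9a3 also stood apart in the leukocyte-rich C2, where Anxa1 read 4.32 beside 2.86 to 3.10 in the other control rats, and the part of leukocyte content in them was not tested.

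**Figure D4:**
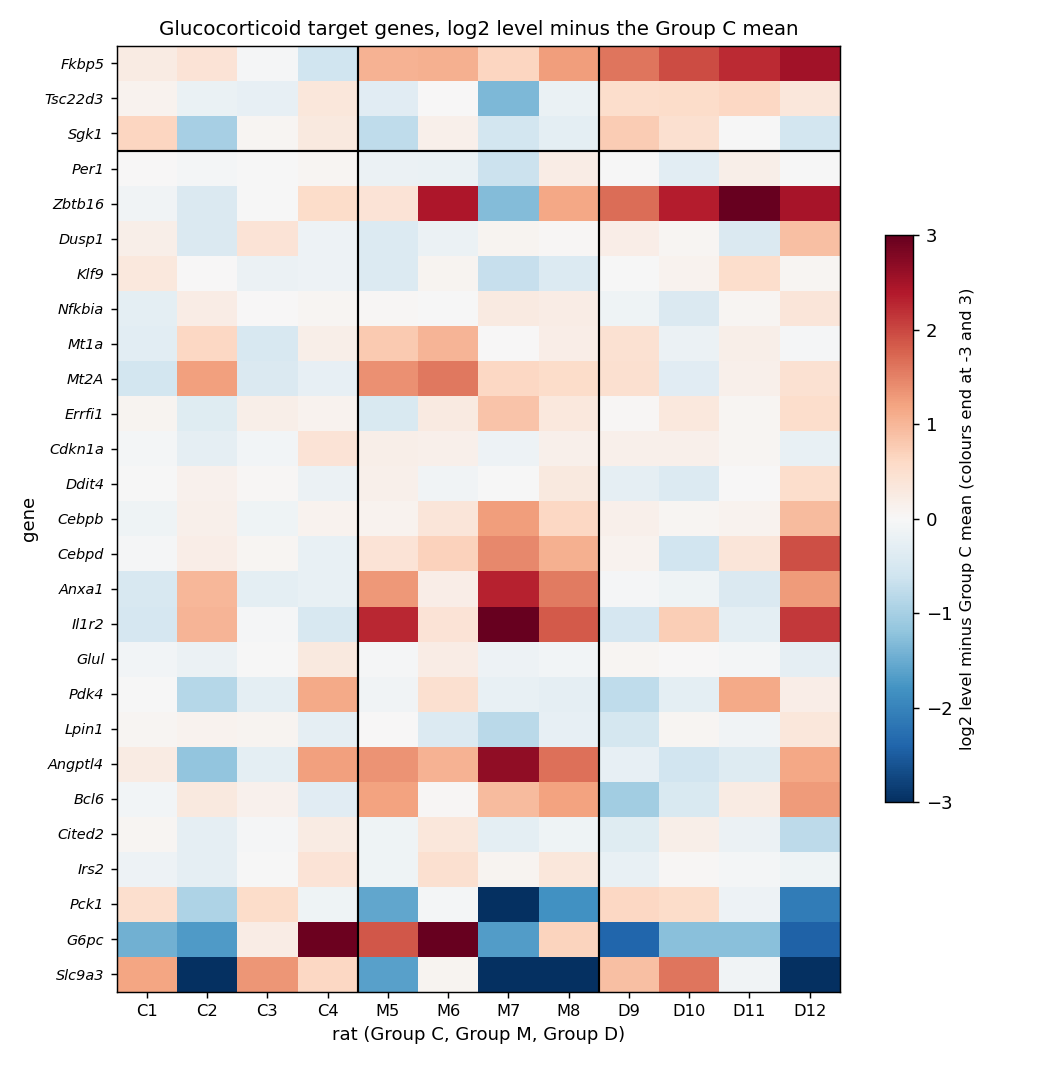
Fkbp5, Tsc22d3 and Sgk1 (above the line) and the 24 other glucocorticoid-responsive genes seen on at least 1 array, as log2 level minus the Group C mean, for each rat. Fkbp5 is raised across Groups M and D, and Zbtb16 across Group D and in M6 and M8. Il1r2, Anxa1, Pck1 and Slc9a3 shift in M5, M7, M8 and D12, the leukocyte-rich rats, together with C2.

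Among 16 chaperones and co-regulators of the receptor, all measured on every array, none passed at an adjusted p of 0.05 by limma in any comparison. By an unadjusted p, 5 were higher and 2 lower in Group M than in Group C, and 2 higher and 2 lower in Group D than in Group M, with list medians of 0.09 and 0.03, where 22.7% and 21.6% of all probes passed. Hsp90aa1, the inducible Hsp90 chaperone that holds the receptor ready for hormone, was higher in Group M by 1.06 ± 0.27 SE (log2, adjusted p = 0.101) and lower in Group D than in Group M by 1.08 ± 0.29 (adjusted p = 0.101). Its co-chaperone Stip1 was higher in Group M by 0.49 ± 0.16 (adjusted p = 0.129), and the coactivators Ncoa1 and Ncoa2 were lower by 0.57 ± 0.17 and 0.48 ± 0.15 (adjusted p = 0.121 and 0.124). D12 read 3.37 for Hsp90aa1, within the Group M range of 2.73 to 3.59. Against Group M, Group D had higher Ncoa1 (0.56 ± 0.19, adjusted p = 0.14) and Ncoa2 (0.37 ± 0.16, adjusted p = 0.219) and lower Ptges3, the p23 co-chaperone (-0.28 ± 0.10, adjusted p = 0.166). With D12 in the fit these were 0.46, 0.19 and -0.16, and -0.77 for Hsp90aa1 (adjusted p = 0.365, 0.731, 0.622 and 0.41).

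Of 29 other genes of steroid synthesis and conversion, 27 were on the array by name, 19 were measured on every array and 5 were at background on all. Again none passed at an adjusted p of 0.05 by limma in any comparison. By an unadjusted p, 2 were higher and 7 lower in Group M than in Group C, with a median of -0.24, and 12 were higher and 1 lower in Group D than in Group M, with a median of 0.31, where 22.7% and 21.6% of all probes passed. Of the 12, 4 were at background on at least 11 arrays (Hsd17b3, Hsd3b5, Nr5a1 and Mc2r), as was 1 of the 7, Hsd17b3. Hsd17b1, which reduces estrone to estradiol, was the closest to the threshold, at 0.75 ± 0.13 SE (log2) in Group D over Group M (adjusted p = 0.0664), with all 4 Group D rats above all Group M rats. It was also higher in Group D than in Group C by 0.32 ± 0.13 (adjusted p = 0.81), and by 0.18 with D12 in the fit. Hsd3b6, a 3-beta-hydroxysteroid dehydrogenase, was higher in Group D than in Group M by 2.64 ± 0.81 (adjusted p = 0.124) and lower in Group M than in Group C by 1.84 ± 0.75 (adjusted p = 0.184). Hsd3b6 was also low in the leukocyte-rich C2 and D12, at -4.37 and -5.52, and with D12 in the fit the difference of Group D from Group M was 1.73 (adjusted p = 0.503). Hsd17b2, which inactivates estradiol, was higher in Group D than in Group M by 0.91 ± 0.39 (adjusted p = 0.212), but D12, at 1.04, lay below all Group M rats and with it the difference was 0.42 (adjusted p = 0.766). Srd5a1, a steroid 5-alpha-reductase, was lower in Group M than in Group C by 0.95 ± 0.35 (adjusted p = 0.159) and Cyb5a, a helper of the Cyp17a1 lyase step, by 0.65 ± 0.22 (adjusted p = 0.136). Cyp11b2, at background on all arrays, also had an unadjusted p under 0.05, between Groups D and C, and no difference is given for it or for the other 4 genes at background.

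The mineralocorticoid-responsive sodium transport list of 12 genes had 0 calls at an adjusted p of 0.05 by limma in every comparison. By an unadjusted p, 4 were lower and 0 higher in Group M than in Group C, and 6 were higher and 1 lower in Group D than in Group M, with list medians of -0.22 and 0.42, where 22.7% and 21.6% of all probes passed. The 12 colon epithelium markers had medians of -0.26 and 0.34 in the same comparisons, and the part of epithelial content in these lists was not tested. The epithelial sodium channel subunits Scnn1a and Scnn1b were lower in Group M than in Group C by 0.56 ± 0.16 SE and 0.81 ± 0.30 (log2, adjusted p = 0.114 and 0.154), as were Atp1b1, a sodium pump subunit, by 0.46 ± 0.20 and Prss8, a protease that activates the channel, by 0.39 ± 0.17 (adjusted p = 0.206 and 0.2). In Group D over Group M the differences were 0.76 ± 0.18 for Scnn1a, 0.92 ± 0.32 for Scnn1b and 0.77 ± 0.22 for Atp1b1 (adjusted p = 0.0848, 0.15 and 0.108). D12 read -0.33 for Scnn1a, below all Group M rats, and with it the 3 differences were 0.47, 0.80 and 0.55 (adjusted p = 0.493, 0.335 and 0.413). The third subunit, Scnn1g, did not go with the other two. It lay between -3.03 and -2.41 in Group C, and read -2.56, -1.59, -2.52 and -0.80 in Group M and -1.90, -1.60, -0.74 and -0.01 in D9 to D12. All Group D rats were above all control rats (log2 difference 1.26 ± 0.43 SE, adjusted p by limma = 0.736). The kinase gene Wnk4 was higher in Group D than in Group C by 0.35 ± 0.16 (adjusted p = 0.837), and by 0.19 with D12 in the fit.

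Over the 12 arrays the genes that tracked each member most closely were sought among 13983 named probes measured on every array, as a description with no test, since arrays share groups, slides and tissue make-up. For Fkbp5 they were Smndc1 (Pearson's r 0.92), Pappa (0.88) and Sfrs7 (0.87). For Cyp17a1 they were Erich1 (0.96), Ctdsp1 (0.95) and Mtf1 (0.95), for Hsd11b2 Ndufv3 (0.97), Gpc2 (0.96) and Best2 (0.95), and for Hsd11b1 Dennd5a (0.98), Nlk (0.95) and Lysmd2 (0.94). For Nr3c1 they were Tmem59, Sema4g and Hs3st2 (each 0.93), and for Nr3c2 Nedd4l (0.97), Rics (0.96) and Grhl2 (0.96). For Tsc22d3 they were Setd7 (0.96), Xrcc1 (0.94) and Banp (0.92), and for Sgk1 Doxl1 (0.94), Tomm22 (0.93) and Scx (0.91). Fkbp5 had the lowest top values of the 8 members measured on all arrays.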

How the data were processed

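Intensities were read from the scanner output of the 12 arrays as deposited. Per the file headers they come from Agilent Feature Extraction 10.5.1.1, whose processed signal the authors obtained after background subtraction. The authors also deposited a matrix of log2 values, which was used as an alternative only. Other columns used were the 0 or 1 flags for outliers, background and saturation. Control spots and outlier-flagged spots were left out, log2 of the processed signal was reduced by log2 of the array's 75th percentile (1434 to 1953 units), and spots of a probe were averaged. Between 75.5% and 77.5% of spots were well above background on each array and none was saturated. The number of arrays limits the precision.

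Groups came from the labels. The 3 groups were fitted in 1 model on 11 arrays with limma 3.58.1 in R 4.3.3, with Benjamini-Hochberg adjustment over 30367 probes and a threshold of 0.05. The labels give each array a group letter and a replicate number, and the study's methods describe the replicates as biological. Litters are not given, so whether rats of a group shared a litter is not known. The fit was checked on simulated data. Permutations used 100000 resamples. Members and lists were chosen with earlier results of these data known. All members were to be named, and from each list, by comparison, the genes past the adjusted threshold, then the methods' criterion, then an unadjusted p of 0.05, at most 4 by size, and the 3 genes most like each member. Some genes that this rule names are not reported here. Alternatives were all 12 arrays, normexp background correction, quantile or median scaling, the authors' matrix, outlier spots kept, a filter on dim probes, the replicate number as a block, array weights, 2 groups only, every probe of the members, the methods' criterion (analysis of variance and Tukey test with a 2-fold change), an unadjusted p, an added 2-fold limit and each rat left out. The leukocyte covariate was added after seeing the data.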

Additional observations from a re-analysis of the deposited data

Results flagged for a closer look

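Within groups of 4 rats, 1 rat stood far from the others of its group in 4 of the 30 sets of levels examined (10 genes in 3 groups), where chance alone gives about 1 in 20 (5%). Nr3c1 read -2.29 in D12, with the nearest Group D rat at -1.95. Nr3c2 read 0.83 in C2, with the nearest control rat at 1.26, and 1.46 in M6, with the nearest Group M rat at 0.997. Cyp11a1 read -7.26 in D10, not well above background, with the nearest Group D rat at -5.20.

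D12, outside the 11 arrays of the tests, lay above every control rat for 3 genes measured well above background there. These were Fkbp5, at 2.17 against a highest control value of 0.07, Hsd11b1, at -0.16 against -0.52, and Cyp11a1, at -5.20 against -5.31. For Fkbp5 the other Group D rats were above all control rats too, for Hsd11b1 they were not, and for Cyp11a1 2 of 3 were. D12 lay below every control rat for Nr3c1 and Nr3c2 (by their brighter probes), Hsd11b2 and Cyp17a1. It read -2.29, 0.35, 3.09 and -3.04, against lowest control values of -1.98, 0.83, 3.32 and -2.22.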

How the results depend on the processing

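The numbers of the 10 genes called at an adjusted p of 0.05 were 0 in Group M against C, 1 in D against M and 0 in D against C, and those of the 80 pathway genes 0, 0 and 0. For the 10 genes the first count became 1 with normexp correction or the filter on dim probes, 5 with array weights or an unadjusted p, and 3 by the methods' criterion. The second became 0 with all 12 arrays, the median shift, only 2 groups or the leukocyte covariate, 6 with weights, 2 by the methods' criterion and 5 by an unadjusted p. The third became 1 with all 12 arrays, normexp, the methods' criterion or an unadjusted p. For the pathway genes the first became 33 with weights, 3 by the criterion and 28 by an unadjusted p, the second 1 with normexp or the filter, 30 with weights, 5 by the criterion and 33 by an unadjusted p, and the third 1 by the criterion and 6 by an unadjusted p. Leaving out 1 rat gave 0 to 4, 0 to 5 and 0 to 0 of the 10 genes and 0 to 23, 0 to 25 and 0 to 0 pathway genes, with every count above 1 coming without M6. The share of all probes called with weights or without 1 rat is not given, and the causes were not tested.

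Replicate numbers did not pair the rats: of 12 same-numbered pairs 3 had deviations correlated over 0.1, and of 36 other pairs 17 did. With the replicate block the call of Cyp17a1 in D against M was lost (1.38, adjusted p = 0.214), leaving 0 of the 10 genes.

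Some differences, none of them past the adjusted threshold, changed sign. With all 12 arrays these were Nr3c2 (-0.045 in D against M, -0.13 in D against C) and, in D against C, Hsd11b1 (0.070), Hsd11b2 (-0.12) and Cyp11a1 (0.10). With normexp they were Cyp11b1 (0.0090, M against C, at background) and Cyp11a1 (0.10, D against C), and with weights Hsd11b2 (-0.046, D against C). With the leukocyte covariate they were Nr3c2 (0.19), Hsd11b1 (-0.073) and Sgk1 (0.24) in M against C, the same genes (-0.22, 0.030 and -0.12) in D against M, and Nr3c2 (-0.030), Hsd11b2 (-0.0079) and Cyp11a1 (0.073) in D against C. Leaving out 1 rat turned the background-level Cyp11b1 (range -0.34 to 0.20, M against C) and, in D against C, Cyp11a1 (-0.42 to 0.65), Nr3c2 (-0.0086 to 0.16) and Hsd11b2 (-0.084 to 0.30). The r of Fkbp5 and Sgk1 was 0.11 on 11 arrays and -0.18 to 0.11 without 1 rat.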
